A study of Mus musculus with 21 samples.

Results

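The 10 immediate early genes Fos, Fosb, Jun, Junb, Jund, Ier2, Egr1, Egr2, Egr3 and Nr4a1 were taken by name from the 14493 genes of a single-cell count matrix of B cells and plasma cells. They were read as 2 groups: the receptor-signal genes Egr1, Egr2, Egr3 and Nr4a1, and the AP-1 genes Fos, Fosb, Jun, Junb and Jund with Ier2, which cell handling can also induce. The matrix held 6619 cells from draining lymph nodes of 6 mice, 2 at each of days 10, 16 and 22 after immunization. Every mouse received 100 µg of the hapten-protein conjugate NP-KLH in Sigma Adjuvant System under the skin at the tail base, and a single gavage of 5 mg tamoxifen to switch on a Cre-ERT2-driven eYFP label. There was no unimmunized or unlabelled group, and the labels used here name neither the strain nor the driver of the Cre. Live IgD-negative eYFP+ cells were sorted into a PC and a non-PC fraction, tagged per mouse with hashed CD45 antibodies, pooled across mice within a fraction and captured in a separate 10x 5' well each, so that the well goes with the sort gate.

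The cell table sets 6 states, given here under the authors' names: PC, prePC, preMem, LZtoDZ, DZ and LZ. The comparisons set PC, prePC, preMem, LZtoDZ and DZ cells against LZ cells, cells called S or G2M (cycling) against cells called G1, day 22 against day 10, the PC well against the non-PC well, and Myc-positive against Myc-negative LZ cells of the non-PC well. How the authors assigned states and phases is not given in the sources used here, so these genes may have had a part in the assignment.

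Immediate early genes are transcribed within minutes of a stimulus without new protein synthesis. Fos and Jun family proteins pair through leucine zippers to form AP-1, whereas Egr1, Egr2 and Egr3 are zinc finger factors and Nr4a1 (Nur77) is an orphan nuclear receptor, all of them induced when the B cell antigen receptor is engaged. In a germinal centre, B cells divide and mutate in the dark zone and meet antigen and T cell help in the light zone, while tissue dissociation and sorting are known to induce Fos and Jun genes. Whether handling also moved the receptor-signal genes, or receptor signals the AP-1 genes, was not tested here.

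Counts were enough for 8 of the genes to be tested between states. The unique molecular identifier (UMI) totals were 7096 for Fos, 849 for Fosb, 1431 for Jun, 11172 for Junb, 6040 for Jund, 3082 for Ier2, 3920 for Egr1 and 686 for Egr2. Nr4a1 had 172 UMIs and Egr3 had 12, and neither passed the count filter in the comparison of states. On GRCm38 (GENCODE M21), Fos lies on the plus strand at chr12:85473890-85477273, Jun on the minus strand at chr4:95049034-95052222, Junb on the minus strand at chr8:84974484-84978718, Egr2 on the plus strand at chr10:67535475-67542188 and Nr4a1 on the plus strand at chr15:101254269-101274795. Jun overlaps the antisense gene Junos, Junb overlaps Prdx2 and Jund overlaps Gm11175, each on the opposite strand. Whether the authors' counting used strand is not given in the sources used here, so counts of those 3 genes may hold reads of their partners.

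RefSeq (GRCm38.p6) promoter windows, from 250 bases before the start site to 50 after it, were found for 7 of the 10 genes. Windows of 5 genes are shown because Fos and Jun had large PC differences, Junb went the other way there, and Egr2 and Nr4a1 are receptor-signal genes. Capitals mark the half-site TGACG of the cAMP response element on either strand, through which CREB-type factors act, and the CArG box, the site of serum response factor.
Fos, chr12:85473640-85473939, plus strand: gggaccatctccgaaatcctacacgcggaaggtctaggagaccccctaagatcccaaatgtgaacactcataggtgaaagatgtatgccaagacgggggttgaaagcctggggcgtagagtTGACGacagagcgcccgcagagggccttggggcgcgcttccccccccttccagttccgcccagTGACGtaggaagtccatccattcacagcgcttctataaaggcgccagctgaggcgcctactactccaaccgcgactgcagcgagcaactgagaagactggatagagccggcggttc
Jun, chr4:95052173-95052472, minus strand: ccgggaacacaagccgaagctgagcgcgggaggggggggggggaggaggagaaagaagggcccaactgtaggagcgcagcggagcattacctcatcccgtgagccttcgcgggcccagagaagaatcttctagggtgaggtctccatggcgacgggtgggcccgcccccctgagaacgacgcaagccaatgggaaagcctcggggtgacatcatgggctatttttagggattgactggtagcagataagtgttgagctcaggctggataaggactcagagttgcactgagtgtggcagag
Junb, chr8:84978699-84978998, minus strand: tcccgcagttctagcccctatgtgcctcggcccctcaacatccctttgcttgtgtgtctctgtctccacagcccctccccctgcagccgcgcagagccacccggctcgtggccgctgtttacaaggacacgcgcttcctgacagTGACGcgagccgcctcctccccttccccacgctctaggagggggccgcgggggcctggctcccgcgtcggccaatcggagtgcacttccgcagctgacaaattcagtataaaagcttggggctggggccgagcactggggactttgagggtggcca
Egr2, chr10:67537619-67537918, plus strand: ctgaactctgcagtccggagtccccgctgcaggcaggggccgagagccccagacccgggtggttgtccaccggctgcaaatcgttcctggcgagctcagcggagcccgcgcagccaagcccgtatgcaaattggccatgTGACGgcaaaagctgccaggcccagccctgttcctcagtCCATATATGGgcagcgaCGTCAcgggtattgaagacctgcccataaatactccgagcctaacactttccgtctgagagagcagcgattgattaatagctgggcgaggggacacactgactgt
Nr4a1, chr15:101266596-101266895, plus strand: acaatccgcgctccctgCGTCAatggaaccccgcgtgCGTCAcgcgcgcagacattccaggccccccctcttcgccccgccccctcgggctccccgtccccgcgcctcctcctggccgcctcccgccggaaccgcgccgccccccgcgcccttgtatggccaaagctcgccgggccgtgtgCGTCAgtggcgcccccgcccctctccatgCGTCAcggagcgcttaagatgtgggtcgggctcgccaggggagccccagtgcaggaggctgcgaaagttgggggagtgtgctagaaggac
The letters TGACG began at -129 and -66 from the start site in Fos and at -106 in Junb. Nr4a1 held them at 4 places, all on the minus strand, and the printed Egr2 window held them at 2 places around a CArG box at -72. That window is entry 3 of 5 for Egr2, and the entries differ. Entry 1 held neither TGACG nor a CArG box, and entry 2 held a CArG box but no TGACG. No TGACG was found in the Jun window. Of 32544 RefSeq promoter windows, 20.9% held TGACG and 1.64% held a CArG box. The AP-1 letters TGANTCA, read on both strands, stood in 7.79% of windows and in none of the members' windows. Fosb, whose window is not printed, held TGACG at -60. An EGR site, GCGNGGGCG, stood in 5.60% of windows, and Fosb held 1 on the plus strand and Nr4a1 1 on the minus strand of the gene. TATAAA stood in 13.6% of all windows, at -33 in Fos and at 1, the start site itself, in Junb. A match is a description of letters and says nothing of binding.

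Levels are given in the usual CPM, a gene's UMIs relative to all UMIs of the summed cells, scaled by edgeR's TMM method. Scaling was done within each fit, so the CPM of the same cells differ between the state, well and day comparisons. PC cells averaged 69.8 CPM of Sdc1, 74.4 of Prdm1 and 2155 of Xbp1, while LZ cells averaged 0.103, 1.01 and 95.7 CPM. LZ cells averaged 459 CPM of Cd83, against 102 in DZ cells, and the memory-precursor marker Ccr6 averaged 201 CPM in preMem cells, against 9.78 in LZ cells. These markers went with the names of the PC, LZ and preMem cells. prePC cells averaged 22.5 CPM of Prdm1, 212 of Xbp1 and 88.2 of Ccr6, between the LZ and the PC values for Prdm1 and Xbp1. LZtoDZ cells averaged 261 CPM of Cd83, between the LZ and the DZ values, and 11.3 CPM of the dark zone gene Cxcr4, against 29.1 CPM in DZ and 13.7 CPM in LZ cells. The T cell gene Cd3e averaged 19.6 CPM in prePC cells, with 0 to 98.0 CPM in single mice, against 0.0896 in LZ cells. Summed over 7 T cell genes, prePC cells held 15.9 to 355 CPM and LZ cells 95.2 to 142 CPM, and the part of T cell RNA in the prePC values was not tested. Cd3e was at 0 in PC, preMem and LZtoDZ cells.

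Mice yielded 573 to 1619 cells and 6260885 to 18599219 UMIs. PC cells numbered 242, with 234 in the PC well. There were 47 prePC, 522 preMem, 232 LZtoDZ, 2382 DZ and 3194 LZ cells, of which 37, 486, 189, 2347 and 3116 were in the non-PC well. Median UMIs per cell were 18722 in PC, 15290 in prePC, 5356 in preMem, 22505 in LZtoDZ, 9310 in DZ and 7784 in LZ cells. Immunoglobulin genes took 22.1% of UMIs in PC cells and 1.35% in LZ cells. Both wells shared 6 cell barcodes. Only 3 prePC cells came from day 10 mouse 1 and none from day 16 mouse 1, so prePC values rest on 5 mice and on few cells.

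PC cells held far more Fos, Fosb and Jun than LZ cells, and less Junb. Of the 8 genes tested, 5 were higher and 1 was lower, where 60.3% of 7641 genes were called in either direction, so a call alone says little here. Fos, the zipper partner of Jun proteins, stood at 414, 472, 420, 416, 763 and 449 CPM in the PC cells of the 6 mice, against 84.3, 64.2, 88.4, 94.1, 105 and 86.7 CPM in their LZ cells. Every PC value lay above every LZ value, and day 22 mouse 1 stood apart from the other 5. The log2 difference was 2.51 ± 0.19 (SE, adjusted p = 1.02e-12, higher in 6 of 6 mice), a 5.68-fold difference, and it ran from 2.39 to 3.02 over 16 alternatives.

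Jun, the founding AP-1 member, had 118, 164, 492, 141, 198 and 28.8 CPM in PC cells, against 16.9, 14.0, 9.14, 10.2, 11.2 and 11.7 CPM in LZ cells. All 6 mice were higher in PC cells, but they spread widely, from 28.8 CPM in day 22 mouse 2 to 492 in day 16 mouse 1. The log2 difference was 3.79 ± 0.25 (adjusted p = 3.26e-14), and 3.50 without day 16 mouse 1. Fosb, a second Fos protein, averaged 66.8 CPM in PC cells and 9.73 CPM in LZ cells, a log2 difference of 2.78 ± 0.20 (adjusted p = 2.74e-13).

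Junb, an AP-1 member that can oppose Jun, had 97.3, 99.2, 91.2, 88.8, 135 and 97.9 CPM in PC cells, against 159, 169, 224, 204, 237 and 218 CPM in LZ cells. The groups did not overlap, and the difference fell on the other side from Fos and Jun, at -0.98 ± 0.21 (adjusted p = 0.00017). Jund was higher by 0.71 ± 0.10 on the log2 scale and Ier2 by 0.98 ± 0.19. Egr1 did not pass the test, with 59.8 to 179 CPM in PC cells and 53.9 to 99.3 CPM in LZ cells (log2 difference 0.14, 95% interval -0.26 to 0.55, adjusted p = 0.56). Egr2 was at -1.16 ± 0.67 (adjusted p = 0.13). Of the 14 genes tested from a list of other immediate early genes, 3 were higher and 7 lower in PC cells, with a median log2 difference of -0.64, against -0.07 over all genes. Btg2, an anti-proliferation gene, was higher by 1.74 ± 0.16, and Dusp2, a phosphatase of MAP kinases, was lower (-2.52 ± 0.27). Of the 11 tested genes of dissociation and heat stress, 4 were higher and 2 lower (median 0.06), and the sum of the list was 7506 to 9988 CPM in PC and 7625 to 8097 CPM in LZ cells. Its heat shock genes Hspa1a and Hspa1b averaged 0 in PC cells and 0.321 and 0.191 CPM in LZ cells, so both were close to 0 in either state.

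**Figure D1:**
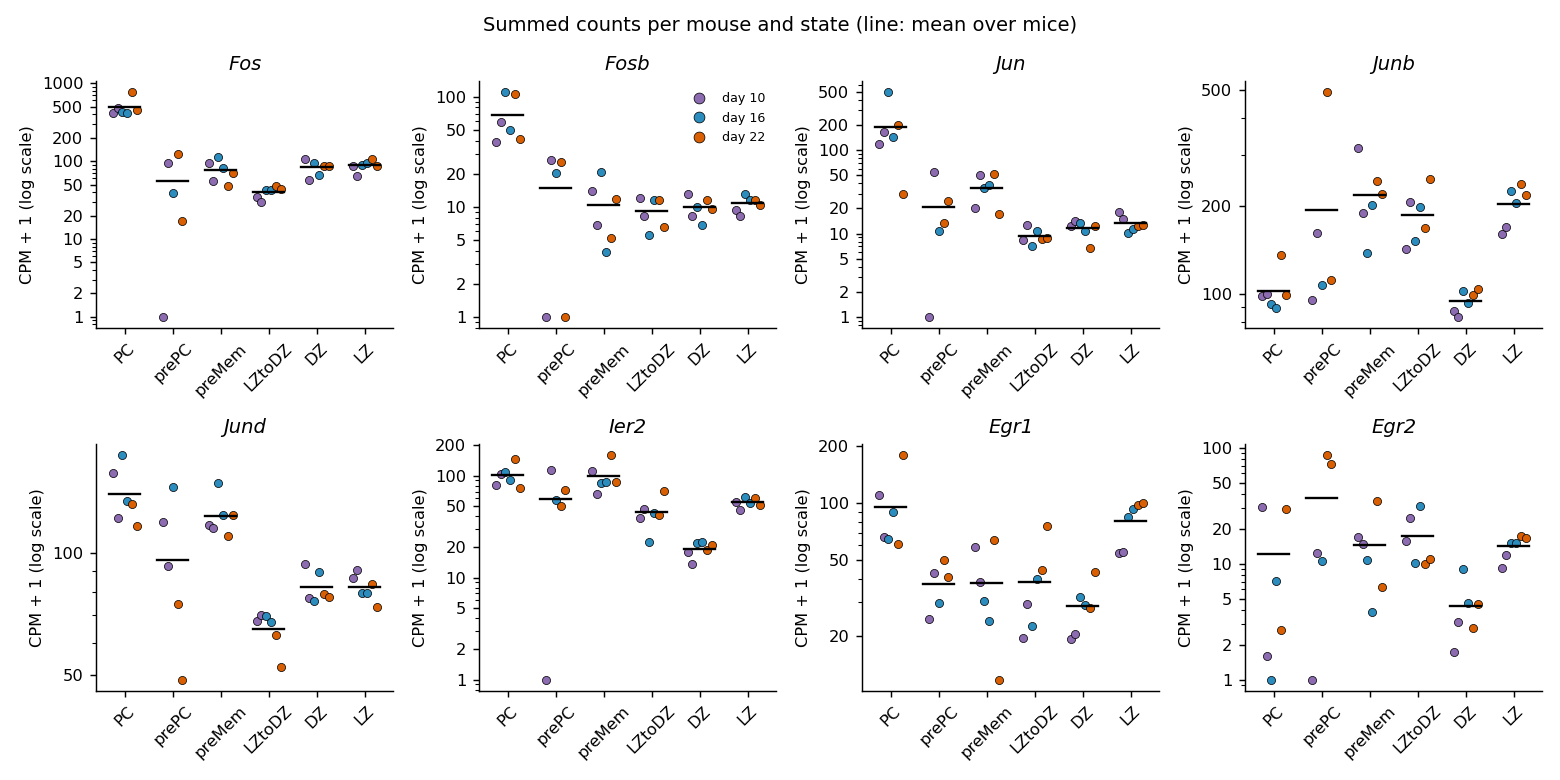
TMM-scaled CPM plus 1 on a log axis for 8 genes, by state, with a point per mouse coloured by day and a line at the mean. Fos in PC cells runs from 414 to 763 CPM, above all other states, while Junb in PC cells (88.8 to 135 CPM) lies under every LZ value.

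The well goes with the state, so its part was measured where it could be. In PC-well cells alone, PC cells were higher than LZ cells by 2.75 log2 units for Fos (adjusted p = 7.91e-08) and 3.97 for Jun (adjusted p = 2.76e-06), with Junb at -0.96 (adjusted p = 0.033), and Jund and Ier2 were no longer called. That restricted fit tested 5 of the genes and called 3. Its sums needed only 3 cells, and the PC well held 78 LZ cells over all mice. The share of all genes called in that fit is not given here, so the count alone says little. In germinal centre cells (DZ, LZ and LZtoDZ), the PC well set against the non-PC well gave Fos at -0.16 ± 0.17 (adjusted p = 0.64), and 1 of 6 tested genes was called where 7.07% of all genes were. Junb was at -0.32, Jund at 0.14, Ier2 at -0.04 and Egr2 at -0.58, none of them called. Jun and Fosb did not pass the count filter there, so the part of the well was not tested for them. Of 12 pairs of sums, Jun was higher in the PC well in 9 and lower in 3, and Fosb higher in 7 and lower in 5. The called gene was Egr1, at -0.91 ± 0.24 (adjusted p = 0.013, lower in 10 of 12 pairs of sums), and the call was lost without day 16 mouse 2 and without day 22 mouse 2. In the same comparison of wells, 4 of 11 tested genes of dissociation and heat stress were called higher and 0 lower. Their median log2 difference was -0.07, against -0.02 over all genes, and what moved them was not tested.

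The 8 PC cells of the non-PC well did not show the high Fos of those in the PC well. Pooled over mice and in CPM of all raw UMIs, without TMM scaling, Fos stood at 358 in the 234 PC-well PC cells (95% Poisson interval 341 to 376) and at 82.9 (48.3 to 133) in the 8 others, which came from 5 mice. Jun stood at 119 CPM (109 to 129) in the PC well and 4.88 CPM (0.123 to 27.2) in the non-PC well, and Fosb at 46.2 CPM in the PC well and 0 of 205043 UMIs (upper limit 18.0 CPM) in the non-PC well. Egr1 went the other way, at 48.8 CPM (42.6 to 55.5) in the PC well and 132 CPM (86.8 to 192) in the non-PC well. The 8 cells also held less Jchain, with 16377 CPM in the PC-well PC cells and 4404 CPM in the 8. Immunoglobulin genes took 22.8% of UMIs in the PC well and 5.73% in the non-PC well. Well and cell identity cannot be told apart for these 8 cells, which make a single pooled value in each well and were looked at after the data were seen. Intervals cover counting error only.

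**Figure D2:**
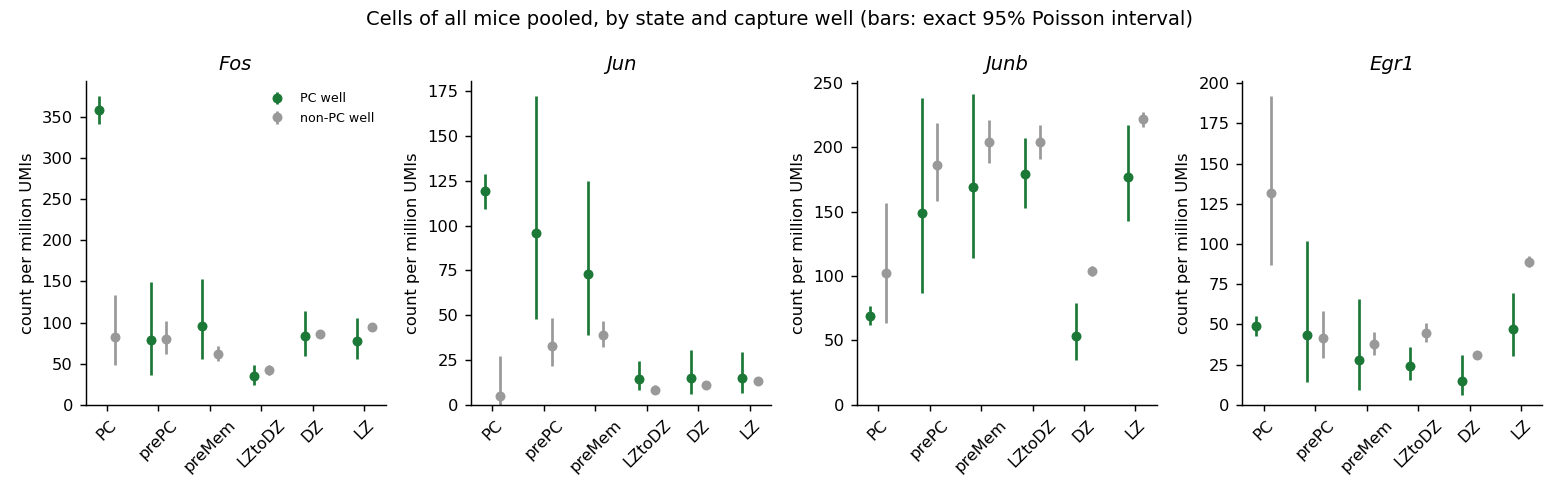
CPM of raw UMIs of Fos, Jun, Junb and Egr1 by state, for PC-well (green) and non-PC-well (grey) cells pooled over mice, with exact 95% Poisson intervals. Fos is 358 in PC cells of the PC well and 82.9 in the 8 PC cells of the non-PC well, while PC-well LZ cells are at 77.3.

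Set against DZ cells, PC cells were higher for 6 of 8 tested genes and lower for none, where 60.5% of all genes were called. Fos was higher by 2.61 ± 0.20 and Jun by 4.01 ± 0.26, with groups that did not overlap. Egr1 was higher too, by 1.69 ± 0.21 (adjusted p = 4.97e-08), with 59.8 to 179 CPM in PC cells and 18.2 to 42.1 CPM in DZ cells. Fosb was higher by 2.94 ± 0.21, Ier2 by 2.56 ± 0.21 and Jund by 0.71 ± 0.10. Junb was at 0.12 ± 0.21 (adjusted p = 0.64) and Egr2 at 0.93 ± 0.83 (adjusted p = 0.34). This comparison shares its PC sums with the one against LZ.

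Against prePC cells, PC cells were higher for 5 genes and lower for 1, where 29.7% of genes were called. Fos had 414 to 763 CPM in PC cells, against 0, 93.4, 38.4, 122 and 15.9 CPM in prePC cells. All PC values were above all prePC values, and Fos was higher by 2.74 ± 0.28 (adjusted p = 2.68e-09, 5 of 5 mice). Jun was higher by 2.27 ± 0.44 (adjusted p = 0.00012), Fosb by 1.58 ± 0.37, Egr1 by 1.01 ± 0.37 (adjusted p = 0.035) and Jund by 0.53 ± 0.15. Ier2 was at 0.25 ± 0.29 (adjusted p = 0.58) and Egr2 at -2.27 ± 0.93 (adjusted p = 0.066). The Egr1 call was lost without day 10 mouse 1, day 10 mouse 2, day 16 mouse 2 or day 22 mouse 2, and its direction turned to -0.54 after thinning. The Jund call was lost without day 10 mouse 2, day 22 mouse 1 or day 22 mouse 2. Junb was lower, at -0.83 ± 0.26 (adjusted p = 0.015), with a prePC value of 490 CPM in day 22 mouse 1 and 94.3 to 161 CPM in the others. Its call was lost without that mouse (-0.48, adjusted p = 0.15) and without day 10 mouse 2. In the PC well alone, Fos remained called as the single gene of 5 tested, while Jun was at -0.41 (adjusted p = 0.78), where 1 of the 10 prePC cells held all 11 Jun UMIs.

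DZ cells held less Egr1, Egr2, Ier2 and Junb than LZ cells, while the 4 other tested genes did not pass. That is 4 of 8 lower and none higher, where 18.5% of genes were called in either direction. Egr1 had 18.2, 19.4, 31.1, 28.1, 27.0 and 42.1 CPM in DZ cells, against 53.9, 54.1, 83.3, 92.6, 96.9 and 99.3 CPM in LZ cells. Each DZ value lay below every LZ value, and Egr1 fell by 1.54 on the log2 scale (SE 0.16, adjusted p = 1.23e-08). Egr2 fell by 2.10 (SE 0.37), with 0.715 to 8.02 CPM in DZ and 8.11 to 16.2 CPM in LZ cells.

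Ier2, a short-lived early response nuclear protein, had 12.6 to 21.2 CPM in DZ cells and 45.3 to 60.7 CPM in LZ cells, and fell by 1.58 (SE 0.17). Junb fell by 1.10 (SE 0.18), with 82.4 to 103 CPM in DZ cells and 159 to 237 CPM in LZ cells. Fos was at -0.10 (95% interval -0.47 to 0.27), Fosb at -0.16, Jun at -0.22 and Jund at -0.00 with an interval of -0.17 to 0.16. The 4 calls held in all 15 alternatives, or 14 for Egr2. Genes of receptor activation went lower together, with 10 of 10 tested called lower and a median of -1.28, against -0.00 over all genes. Among them Cd83, a light zone surface protein, was at -2.18 ± 0.23. Cd83, Cd86 and Il4i1 of that list are also light zone markers, so its count cannot be taken as independent of the state names. Nab2, a corepressor that binds Egr1, was at -1.71 ± 0.19. Its list of upstream and feedback regulators had 1 gene higher and 4 lower of 15 tested (median -0.06). Nfkbia, the NF-kB inhibitor and also a light zone marker here, was at -1.62 ± 0.19. It was the only gene called of 11 tested in the dissociation and heat stress list (median 0.03).

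LZtoDZ cells, which the authors place on the way from the light to the dark zone, held less Fos, Jund and Egr1 than LZ cells. These 3 of 8 were lower, none was higher, and 55.3% of genes were called. Of the 232 LZtoDZ cells 215 were cycling, against 1464 of the 3194 LZ cells. The part of phase in the differences given here, those of heat stress genes included, was not tested. Fos had 33.4, 28.9, 41.2, 42.0, 47.3 and 43.3 CPM in LZtoDZ cells, against 64.2 to 105 CPM in LZ cells, with no overlap, and fell by 1.12 (SE 0.21, adjusted p = 3.85e-05). Egr1 fell by 1.05 (SE 0.19, lower in 6 of 6 mice), and Jund fell by 0.34 (SE 0.09). Junb stayed within the spread at -0.10 (interval -0.48 to 0.28), and Egr2 at 0.39 (interval -0.40 to 1.17). Fosb was at -0.22, Jun at -0.45 and Ier2 at -0.28, none of them called. Batf, an AP-1 partner, was higher by 2.52 ± 0.17 and Bach2, a repressor that competes at AP-1 sites, was lower at -2.09 ± 0.21. The dissociation and heat stress list had 6 genes higher and 3 lower, with a summed level of 12938 to 15294 CPM, against 7625 to 8097 CPM in LZ cells.

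**Figure D3:**
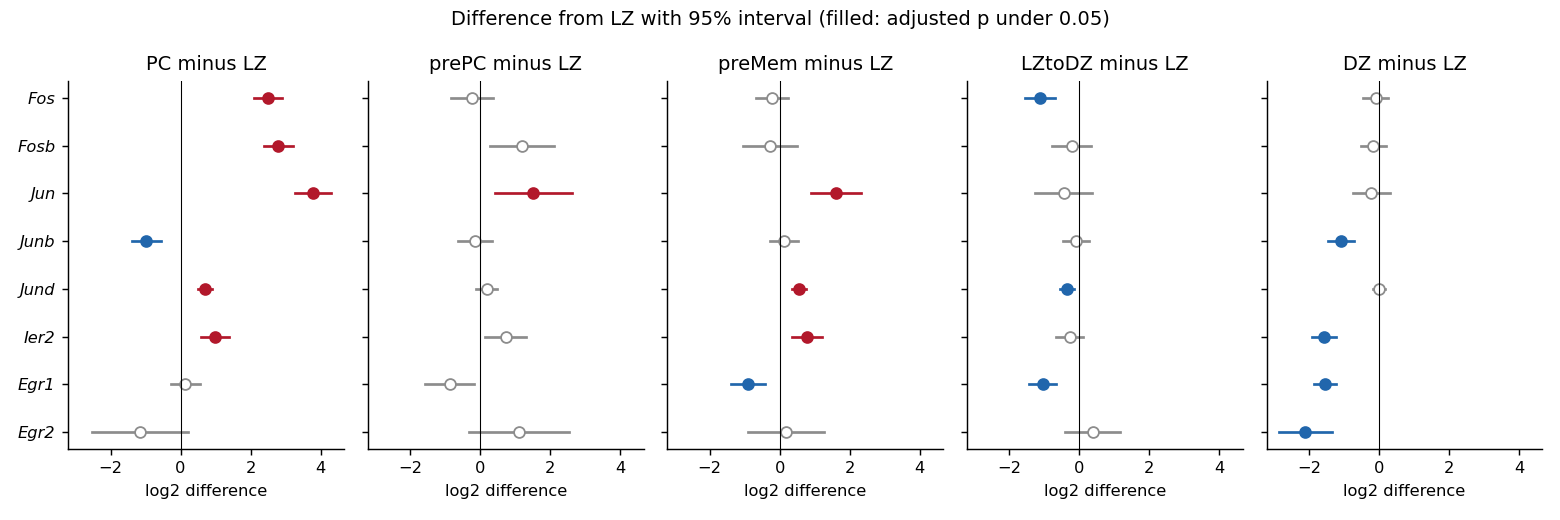
Log2 difference from LZ cells with its 95% interval for 8 genes in PC, prePC, preMem, LZtoDZ and DZ cells, on a common axis. Red marks higher calls, blue lower calls and open grey circles no call. Fos, Fosb and Jun reach 2.51 to 3.79 in PC cells, while Egr1 and Egr2 are at -1.54 and -2.10 in DZ cells.

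preMem cells had more Jun, Jund and Ier2 and less Egr1 than LZ cells, 3 of 8 higher and 1 lower, where 36.3% of genes were called. Jun had 19.4, 49.2, 34.4, 37.1, 50.4 and 16.0 CPM in preMem cells, against 9.14 to 16.9 CPM in LZ cells. It was higher by 1.61 ± 0.35 (adjusted p = 0.00048, 6 of 6 mice). Ier2 had 64.8 to 159 CPM in preMem and 45.3 to 60.7 CPM in LZ cells, higher by 0.78 ± 0.20, and Jund was higher by 0.56 ± 0.10. Neither overlapped, and both calls were lost in G1 cells alone. Egr1 had 10.7 to 63.0 CPM in preMem cells, against 53.9 to 99.3 CPM in LZ cells, and fell by 0.91 (SE 0.24, adjusted p = 0.0030). Fos was at -0.22, Fosb at -0.28, Junb at 0.12 and Egr2 at 0.17, none of them called. Pecam1, an adhesion molecule listed here with stromal and follicular dendritic markers, moved the same way as Jun. It had 42.7 to 85.6 CPM in preMem cells and 14.5 to 20.1 CPM in LZ cells (1.68 ± 0.15, adjusted p = 1.83e-10), while Cxcl13 and Clu of that list were at 0 in preMem cells. Btg2 was higher by 1.15 ± 0.16, Ier5 by 1.18 ± 0.20 and Cd69, an activation antigen, by 0.91 ± 0.22.

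In prePC cells, Jun alone was called against LZ cells, 1 of 8, where 17.1% of genes were. Jun had 0, 53.1, 9.59, 12.2 and 23.8 CPM in prePC cells, against 9.14 to 16.9 CPM in LZ cells, so the groups overlapped and 3 of 5 mice were higher. The difference was 1.52 ± 0.54 (adjusted p = 0.049), and the call was lost without day 10 mouse 2 (0.45, adjusted p = 0.90) and without day 16 mouse 2. Fosb was at 1.20 ± 0.45 (adjusted p = 0.061), Ier2 at 0.73 ± 0.29 (adjusted p = 0.078) and Egr1 at -0.87 ± 0.35 (adjusted p = 0.083). Fos was at -0.23, Junb at -0.15 and Jund at 0.19, none of them called. The interval for Egr2 ran from -0.33 to 2.55. Against preMem cells, Fosb was higher in prePC cells by 1.48 ± 0.54 (adjusted p = 0.045) and no other gene was called, 1 of 8 where 23.0% of genes were. Fosb had 0, 25.8, 19.2, 24.5 and 0 CPM in prePC cells and 2.85 to 19.6 CPM in preMem cells, and its call was lost without day 10 mouse 2, without day 16 mouse 2 and without day 22 mouse 1. Jund was at -0.37 ± 0.15 (adjusted p = 0.11) and Egr2 at 0.94 ± 0.80 (adjusted p = 0.43). The 5 others, Fos, Jun, Junb, Ier2 and Egr1, lay between -0.27 and 0.04.

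Nr4a1 and Egr3 were too sparse to test between states. Nr4a1 had 1 UMI in 4655607 in PC-well PC cells, or 0.215 CPM of raw UMIs (95% Poisson interval 0.00544 to 1.20), and 110 in 27608783, or 3.98 CPM (3.27 to 4.80), in non-PC-well LZ cells. In mice, Nr4a1 averaged 0.0984 CPM in PC, 0.570 in DZ and 3.53 in LZ cells, and all 6 mice were higher in LZ than in DZ cells. preMem cells had 0 to 12.6 CPM in 5 mice and 63.8 CPM in day 16 mouse 1, where 1 of 41 cells held all 13 Nr4a1 UMIs. That cell held 2 UMIs of Egr1, 2 of Junb and 0 of Fos. Egr3 had 7 UMIs in LZ cells, 5 in preMem cells and 0 in the other 4 states. In DZ cells the 0 counts allow at most 0.144 CPM (non-PC well, exact Poisson), and in PC cells 0.792 CPM (PC well).

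Ranked by mean over mice, Fos went PC, LZ, DZ, preMem, prePC and LZtoDZ, at 489, 87.1, 81.8, 76.1, 54.0 and 39.4 CPM. PC stood above LZ without overlap, and no other neighbours in that order were apart. Egr1 went PC, LZ, LZtoDZ, preMem, prePC and DZ, at 94.3, 80.0, 37.5, 36.9, 36.6 and 27.7 CPM, where every neighbour overlapped. Junb went preMem, LZ, prePC, LZtoDZ, PC and DZ, at 217, 202, 192, 185, 102 and 93.8 CPM, and its only gap without overlap lay between LZtoDZ and PC. Jun went PC, preMem, prePC, LZ, DZ and LZtoDZ, at 190, 34.4, 19.8, 12.2, 10.6 and 8.39 CPM, with PC and preMem overlapping through the PC value of 28.8 CPM. For Ier2 the order was PC, preMem, prePC, LZ, LZtoDZ and DZ, from 100 to 18.1 CPM, with DZ below LZtoDZ without overlap. Egr2 went prePC, LZtoDZ, preMem, LZ, PC and DZ, from 35.6 to 3.30 CPM, with overlap at each step.

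Across the 35 mouse and state sums, the genes nearest to Fos by Pearson correlation of log2 CPM centred within mouse were Sec61a1 (0.93), Fut8 (0.92) and Atraid (0.92). Those for Jun were Os9, Unc50 and Atf6, and those for Fosb were Hyou1, Fos and Ppapdc1b. Junb was nearest to Nfkbia (0.82), Samsn1 and Ifi30, and Jund to Btg2, Tmem59 and Itga4 (0.87 each). Ier2 was nearest to Themis2, Chst12 and Eci2 (0.85 each), Egr1 to Erp44 (0.74), Mgat2 and Abracl, and Egr2 to Il4i1 (0.67), Adi1 and Ppap2a. Sec61a1, Hyou1, Os9 and Atf6 are genes of the endoplasmic reticulum and its stress response. Within the set, Fos and Fosb reached 0.88, Jun and Fos 0.79, Junb and Egr2 0.56, and Fos and Junb -0.15. Sums of a mouse share the animal, and all mice share the libraries and the 6 states, so these are descriptions.

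Cycling cells held less of several of these genes than G1 cells in all 3 states compared. In PC cells, Fos had 211, 237, 233 and 529 CPM in the cycling cells of the 4 mice with enough cells, against 430, 523, 671 and 829 CPM in G1 cells. Every mouse was lower when cycling, although the highest cycling value passed the lowest G1 value. The log2 difference was -1.08 ± 0.16 (adjusted p = 0.0038), and Jun was at -1.52 ± 0.28, Jund at -1.01 ± 0.20 and Ier2 at -1.53 ± 0.26. Those 4 of 7 tested genes were lower and none higher, where 26.9% of genes were called. Jun was higher in the cycling cells of day 10 mouse 1, at 102 CPM against 83.5 in G1 cells, and its call was lost without day 10 mouse 2. After thinning every cell to the same 4727 UMIs, 1 gene could be tested and none was called: Fos was at -0.87 (adjusted p = 0.085). Without thinning, Egr1 was at -1.25 ± 0.45 (adjusted p = 0.085), Fosb at -0.78 ± 0.33 (adjusted p = 0.13) and Junb at -0.67 ± 0.22 (adjusted p = 0.061). All 4 tested genes of the other immediate early list were lower, Zfp36 by -1.39 ± 0.10 among them, while Hsp90aa1 was higher by 1.73 ± 0.11.

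In DZ cells, 4 of 7 tested genes were lower in cycling cells, where 37.7% of genes were called. Junb had 84.9, 76.3, 85.9, 83.0, 96.9 and 101 CPM in cycling DZ cells, against 131, 157, 174, 169, 141 and 144 CPM in G1 DZ cells, with no overlap (log2 difference -0.79 ± 0.09, adjusted p = 2.01e-06). Jund was at -0.63 ± 0.10, Egr1 at -0.48 ± 0.15 and Fos at -0.23 ± 0.08. Fosb was at 0.22, Jun at 0.20 and Ier2 at -0.04, none of them called. The Fos call held in 3 of 13 alternatives and was lost without any mouse but day 16 mouse 2, and the Egr1 call was lost without day 10 mouse 2 and without day 16 mouse 2. In LZ cells, 5 of 8 were lower, where 43.4% of genes were called: Junb (-0.48 ± 0.06), Jund (-0.43 ± 0.06), Ier2 (-0.31 ± 0.10), Egr1 (-0.52 ± 0.09) and Egr2 (-0.93 ± 0.20). Egr2 had 4.83 to 15.1 CPM in cycling LZ cells and 14.6 to 28.4 CPM in G1 LZ cells, lower in 6 of 6 mice. The Ier2 call was lost without day 16 mouse 1 and without day 22 mouse 1. Fos was at -0.03 (interval -0.16 to 0.10), Fosb at 0.24 (interval -0.17 to 0.64) and Jun at 0.14 (interval -0.24 to 0.52) in LZ cells. The light zone genes Il4i1 (-1.47 ± 0.06) and Cd83 (-0.76 ± 0.04) were also lower in cycling LZ cells.

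**Figure D4:**
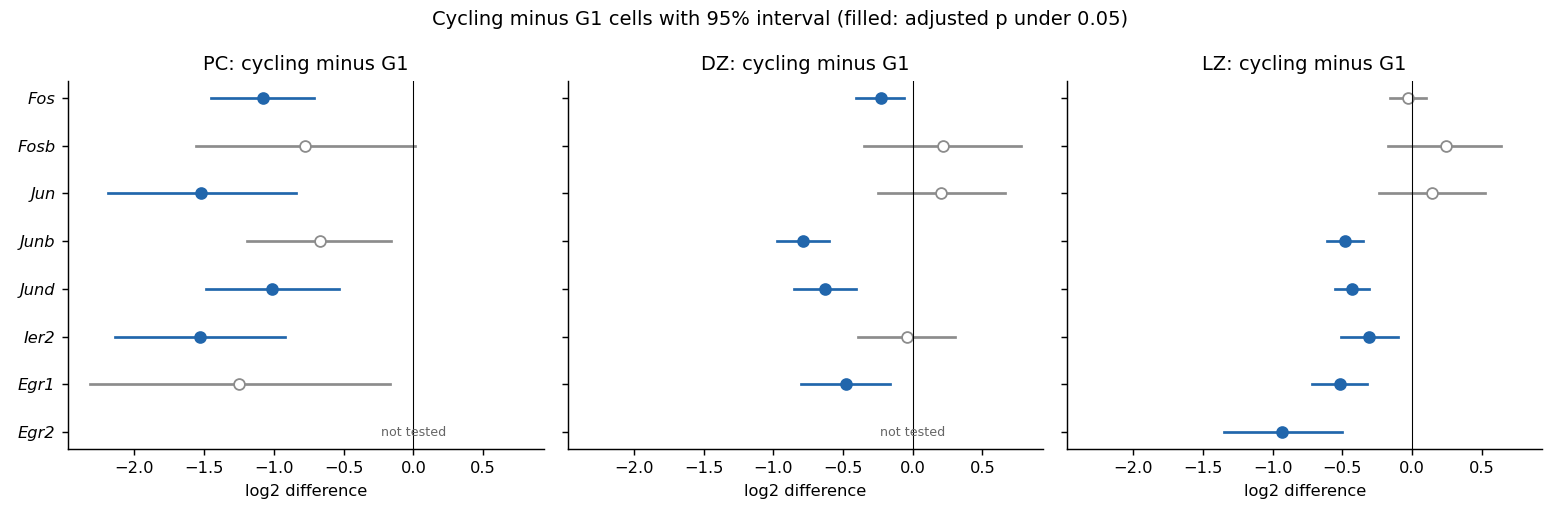
Log2 difference of cycling minus G1 cells with its 95% interval for 8 genes in PC, DZ and LZ cells. Fos is at -1.08 in PC, -0.23 in DZ and -0.03 in LZ cells, while Jund is called lower in all 3.

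Egr1 in LZ cells was higher at later days. It had 58.7 and 58.9 CPM at day 10, 90.8 and 101 CPM at day 16, and 106 and 109 CPM at day 22. No day 10 value reached a day 16 value, and day 22 against day 10 gave a log2 difference of 0.86 ± 0.08 (adjusted p = 0.0021), called in all 12 alternatives. Junb had 173 and 184 CPM at day 10, 244 and 222 CPM at day 16, and 258 and 238 CPM at day 22, with a difference of 0.47 ± 0.07 (adjusted p = 0.016). Its call was lost without day 10 mouse 1, without day 10 mouse 2 and without day 22 mouse 1. These were 2 of 9 tested genes, both higher, where 1.52% of genes were called.

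Egr2 had 8.83 and 11.8 CPM at day 10, 15.5 and 15.3 CPM at day 16, and 17.7 and 17.0 CPM at day 22 in LZ cells (0.69 ± 0.17, adjusted p = 0.095). Fos was at 0.40 ± 0.13 (adjusted p = 0.20), Jun at -0.39 ± 0.17 (adjusted p = 0.32) and Nr4a1 at -0.93 ± 0.37 (adjusted p = 0.29). Fosb was at 0.38, Jund at -0.17 and Ier2 at 0.16, none of them called. Of 17 tested other immediate early genes, only Gadd45b was called, higher by 0.56 ± 0.09. In DZ cells 0 of 8 tested genes were called by edgeR's quasi-likelihood test, where 0.533% of genes were. Egr1 there gave a difference of 0.86 ± 0.20 (adjusted p = 0.14). Its values there were 19.9 and 21.1 CPM at day 10, 34.2 and 30.9 CPM at day 16, and 29.7 and 45.9 CPM at day 22. The other 7 in DZ cells ran from -0.57 for Jun to 0.66 for Egr2, with Fos, Fosb, Junb, Jund and Ier2 between them. By that test 0 of 6 genes in preMem cells and 0 of 7 in PC cells were called, where 0.0790% and 0.0247% of genes were. At an unadjusted p under 0.05 the counts were 2 in DZ cells, 0 in preMem cells and 0 in PC cells, and DESeq2 called 0 in each. In PC cells Fos had 306 and 323 CPM at day 10, 330 and 302 CPM at day 16, and 545 and 336 CPM at day 22 (0.49, interval -0.20 to 1.18). These CPM are scaled within the fit by day, so they differ from those of the same sums in the comparison of states. The other 6 in PC cells, Fosb, Jun, Junb, Jund, Ier2 and Egr1, ran from -0.15 for Jun to 0.71 for Fosb. In preMem cells Fos and Jun were at -0.22 and Ier2 at 0.65, with Junb, Jund and Egr1 between them. Each day has 2 mice, so p-values rest on a spread shared over genes.

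**Figure D5:**
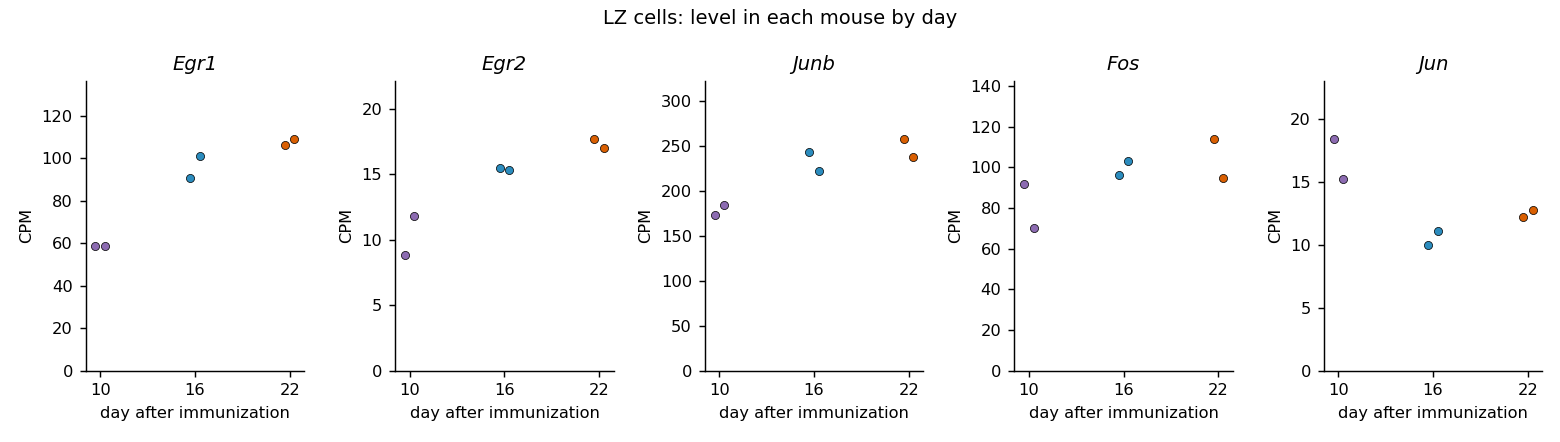
TMM-scaled CPM of 5 genes in the LZ cells of each mouse at days 10, 16 and 22, with a point per mouse and axes from 0. Egr1 is at 58.7 and 58.9 CPM at day 10 and at 106 and 109 CPM at day 22.

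Among the LZ cells of the non-PC well, those with at least 1 UMI of Myc, a gene induced by T cell help and antigen, held more Junb, Ier2 and Egr1 than those with none. Junb had 226, 296, 363, 318, 402 and 345 CPM in Myc-positive cells, against 161, 151, 219, 204, 220 and 217 CPM in Myc-negative cells, without overlap (0.75 ± 0.06, adjusted p = 6.72e-07). Ier2 had 77.8 to 106 CPM in Myc-positive cells and 41.5 to 58.2 CPM in Myc-negative cells (0.81 ± 0.09, adjusted p = 4.15e-05). Egr1 was higher by 0.45 ± 0.08 (adjusted p = 0.0016, 6 of 6 mice). These were 3 of 8 tested genes, where 5.57% of genes were called. Fosb was at -0.15 and Jund at 0.11, neither called. Fos was at -0.16 ± 0.08 (adjusted p = 0.28), Jun at 0.21 ± 0.20 (adjusted p = 0.63) and Egr2 at 0.56 ± 0.20 (adjusted p = 0.13).

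Nr4a1, which did not pass the count filter there, had 18.0, 23.5, 8.55, 5.11, 0.842 and 10.3 CPM in Myc-positive LZ cells, against 0.958, 1.78, 1.99, 2.48, 1.76 and 2.61 CPM in Myc-negative LZ cells. It was higher in 5 of 6 mice, all but day 22 mouse 1. Of 10 tested receptor activation genes, 8 were higher, Myc itself included, with Nfkbid at 2.06 ± 0.19 and Cd69 at 1.11 ± 0.12. Tnfaip3, an NF-kB inhibitor, was at 1.33 ± 0.17 and Batf at 1.41 ± 0.14. The 544 Myc-positive cells had a median of 9692 UMIs and the 2572 Myc-negative cells 7527. The calls of Junb and Ier2 held in all 12 alternatives, thinned cells included, and that of Egr1 in 11.

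Single cells showed how widely each gene was detected. After thinning, 57.6% ± 12.6 (SD, 6 mice) of PC cells held a Fos UMI, against 31.7% ± 3.92 of LZ cells; unthinned shares were 80.2% and 46.9%. Junb was seen in 19.1% ± 4.10 of thinned PC cells and 54.4% ± 4.63 of thinned LZ cells. The top 5% of PC cells held 22.5% of their Fos UMIs and 37.2% of their Jun UMIs, and the top 5% of LZ cells held 27.2% of Fos and 65.4% of Jun UMIs. No state is known to lack these genes, so the share that free RNA gives was not measured.

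Pairs of genes were also read in the same cells. In thinned PC-well PC cells of the 3 mice with enough of them, 22.1% of Fos-positive cells held Egr1, against 1.33% of Fos-negative cells, and 38.1% held Jun, against 18.4%. In thinned non-PC-well LZ cells, 5.67% of Fos-positive cells held Jun, against 4.31% of Fos-negative ones, and 27.6% held Egr1, against 20.1%. Egr1-positive LZ cells held Egr2 in 13.6%, against 3.59% of Egr1-negative ones, and Ier2-positive LZ cells held Egr1 in 39.6%, against 18.4%. These shares are descriptions over cells of shared libraries.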

How the data were processed

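The deposited matrix held raw UMI counts per gene and cell, with no normalization by the authors. Cell Ranger, Seurat and mm10/GRCm38 stand in the submitters' processing notes, with versions not given in the sources used here. Mouse, state, phase and day came from the deposited cell table. All 21 libraries pool the 6 mice, so each mouse, read from its hashtag, served as a replicate.

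For each mouse and state, counts were added up in Python 3.11.15 (numpy 2.4.6, pandas 2.3.3, scipy 1.17.1), with at least 10 cells per sum. The minimum was 3 cells for prePC, 5 for phases and wells, and 3 for the fit of the PC well alone. Sums were tested in R 4.3.3 with edgeR 4.0.16: TMM scaling, filterByExpr, the quasi-likelihood F-test with Benjamini-Hochberg adjustment over all genes of the fit, and a threshold of 0.05. Mouse was a block, since sums of a mouse come from the same animal. Day comparisons have no block. CPM are TMM-scaled, and ± after a log2 difference is its SE. Every comparison of states came from 1 fit, so contrasts against LZ share the LZ sums.

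Alternatives were DESeq2 1.42.0 (test and size factors), no count filter, no immunoglobulin genes (253), cells thinned to 4727 UMIs (5957 cells left, 662 removed), G1 cells only, the PC well only, at least 30 cells per sum, cells named against their fraction left out, no block and each mouse left out. State by well values were added after the data were seen. The scripts were tested on simulated data. All 10 genes are named wherever tested, and from each list up to 4 genes with the lowest p. The most alike genes are the 3 highest by Pearson correlation among genes with a mean of at least 20 CPM, with immunoglobulin and mitochondrial genes left out. The genes and lists were chosen with earlier results of these data known. Gene positions are from GENCODE M21. No doublet caller was run, and receptor sequences were not analysed here. Depth was 1335 to 70744 UMIs per cell. Figures were drawn with matplotlib 3.10.9.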

Additional observations from a re-analysis of the deposited data

Results flagged for a closer look

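In 49 groups of 5 or 6 mice, each a gene in a state, 6 held a mouse far from the others, and chance flags about 1 in 20 groups. Fos in PC cells was 763 CPM in day 22 mouse 1, against 414 to 472 CPM in the others. Junb in PC cells was 135 CPM in the same mouse, against 88.8 to 99.2 CPM in the others. Jun in PC cells was 492 CPM in day 16 mouse 1, which had 12 PC cells, against 28.8 to 198 CPM in the others. Junb in prePC cells was 490 CPM in day 22 mouse 1, from 5 cells, against 94.3 to 161 CPM in the others. Jund in preMem cells was 147 CPM in day 16 mouse 1, against 109 to 123 CPM in the others. Nr4a1 in preMem cells was 63.8 CPM in day 16 mouse 1, against 0 to 12.6 CPM, and came from 1 cell of 4802 UMIs.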

How the results depend on the processing

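Of 50 called results for single genes, 19 lost their call under at least 1 alternative with the direction kept. Jun in PC against prePC is counted apart: it was called in 14 of 15 alternatives and turned direction in the PC well alone. The rest were called under every alternative that tested them. The share of all genes called is not given for the alternatives, so their counts alone say little. Counts of called genes moved by over 1.5 times as follows, and the cause was not tested. With the PC well alone, 3 genes were called in PC against LZ, 3 in PC against DZ and 1 in PC against prePC, with 5 genes tested in each. There Jun turned to -0.41 and Jund to -0.19 in PC against prePC. After thinning, 3 were called in PC against prePC, where Egr1 turned to -0.54, and 0 in prePC against LZ, 0 in prePC against preMem, 0 in cycling against G1 PC cells (1 gene tested), 2 in cycling against G1 DZ cells and 0 between wells. In G1 cells alone, 2 were called in preMem against LZ, 2 in prePC against LZ, 3 in PC against prePC and 0 in prePC against preMem. Without immunoglobulin genes, 3 were called in prePC against LZ, and for day 22 against day 10, 4 in LZ and 1 in DZ cells. DESeq2 called 2 in prePC against LZ. With no count filter, 1 was called by day in DZ cells and 2 between wells. Leaving out a mouse in turn gave 0 to 2 calls in prePC against LZ, 3 to 6 in PC against prePC, 0 to 1 in prePC against preMem, 2 to 3 in cycling against G1 DZ cells (main count 4), 1 to 2 by day in LZ, 0 to 1 by day in DZ and 0 to 2 between wells.

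With no replicate block, 0 genes were called in prePC against preMem, 2 in cycling against G1 DZ cells and 0 between wells. The count moved by less than 1.5 times in the other comparisons, with 6 in PC against LZ and 4 in DZ against LZ. Pairing is by animal. prePC values rest on 47 cells, and Egr3 and Nr4a1 on 12 and 172 UMIs.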
